A study of Gallus gallus with 16 samples.

Results

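The effect of FOXL2 knockdown on gene expression was followed over both stages of the chicken ovarian follicle at once, as the main effect of the siRNA with the stage of the cells as a term. All 16 of the 16 RNA-Seq libraries entered the comparison, 8 from cells with FOXL2-siRNA (KD) and 8 from cells with NC-siRNA, a nonsense control (CT). Each stage had a group of 4 libraries for either siRNA, poGC-CT and poGC-KD in one and phGC-CT and phGC-KD in the other, where poGC are granulosa cells of the pre-ovulatory F2 to F4 follicles and phGC are those of pre-hierarchical small yellow follicles. All cells were primary cultures from White Leghorn hens of 25 to 30 weeks, grown for 16 h in Medium 199 with 5% FBS, transfected by lipofection and collected 48 h later. The study names 4 hens, and which hen gave which library is not given in the sources used here, so that p-values measure the spread between these cultures and may cover technical spread only. A single duplex was used against FOXL2 and a single control duplex against it, and effects of less FOXL2 cannot be told apart from effects of the FOXL2-siRNA sequence on other transcripts.

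FOXL2 is a forkhead transcription factor and one of the earliest markers of the female gonad. In granulosa cells, the layer that surrounds the oocyte and feeds it, FOXL2 keeps the ovarian fate, takes part in the control of steroid hormone genes and restrains proliferation. A gene that it normally represses should rise when FOXL2 is reduced and a gene that it normally activates should fall, but indirect changes look the same. In the hen, granulosa cells of the small yellow follicles are immature and divide, while those of the pre-ovulatory hierarchy are differentiated and make progesterone.

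The sequences of both duplexes are shown because the whole comparison rests on them. The FOXL2-siRNA and NC-siRNA strands, with the 19 paired bases in capitals and the 2-base overhang in lower case, were as follows.
FOXL2-siRNA strand 1: GCCUCAACGAGUGCUUCAUtt
FOXL2-siRNA strand 2: AUGAAGCACUCGUUGAGGCtt
NC-siRNA strand 1: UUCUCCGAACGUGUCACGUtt
NC-siRNA strand 2: ACGUGACACGUUCGGAGAAtt
In each duplex the capitals of strand 2 were the reverse complement of those of strand 1. Both duplexes held 10 G or C bases in the paired part, and the longest run of bases that the 2 duplexes shared was 4 bases.

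The libraries held 29979116 to 56121795 counts, with 15524 to 16400 gene rows detected in each, and the pairwise correlation of log2 CPM between libraries of 1 group was 0.952 to 0.968. The total, the number of gene rows detected and the share of the 20 most counted gene rows differed between KD and CT with exact permutation p of 0.270612, 0.0714286 and 0.359184, the KD libraries having on average 140 gene rows fewer. Levels are given below as CPM, the usual depth-scaled count, with library sizes scaled by TMM. Of 10 granulosa markers 9 were in the files, and the mean of each was above 1 FPKM in all 4 groups, FPKM being a level per transcript length. Markers of oocytes and erythrocytes were close to absent, with summed levels of at most 4.43 and 2.03 FPKM in any library. Summed theca and stroma markers reached 991 FPKM, mostly COL3A1 and COL1A1, and summed white blood cell markers 81.6 FPKM, mostly CD74, and both are given below beside the results they move with. In bulk libraries fewer cells of a type and less RNA per cell cannot be told apart.

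FOXL2 itself fell in both stages, to 67.9% of the control level on average (average log2 fold change -0.56, SE 0.09, adjusted p = 0.000266). Its level was 689, 758, 769 and 724 CPM in poGC-CT against 508, 445, 472 and 393 CPM in poGC-KD. In phGC, FOXL2 had 472, 497, 682 and 589 CPM in phGC-CT against 401, 507, 399 and 363 CPM in phGC-KD. The groups did not overlap in poGC, whereas in phGC the second KD library lay above the lowest pair of CT libraries. The fall was -0.69 on the log2 scale in poGC and -0.42 in phGC, and the difference between the stages did not pass the test (adjusted p = 0.396). Over the libraries alone, the mean log2 CPM was lower in KD with a two-sided exact permutation p of 0.00122, where 0.000408 is the smallest p the design allows, and an adjusted value of 0.0049 over 4 measures.

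Across the genome, 3718 of 14775 tested gene rows changed with the siRNA at an adjusted p under 0.05 in edgeR's quasi-likelihood test. Of these 1945 rose, 13.2% of those tested, and 1773 fell, 12%. A fold change above 1.5 was reached by 478 risers, 3.24%, and by 450 fallers, 3.05%. The average was then split by stage. A gene row is called shared here when it passed the average test, moved in the same direction in poGC and phGC, and reached an unadjusted p under 0.05 in each stage alone. There were 2018 shared gene rows, 13.7% of those tested, with 1008 up (6.82%) and 1010 down (6.84%). Of the 1700 other called rows, 993 reached that p in poGC only, 682 in phGC only and 25 in neither stage, and no called row reached it in both stages with opposite signs.

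Most shared changes were small. The median log2 fold change was 0.43 among shared rises and -0.43 among shared falls, against -0.0004 over all tested gene rows. Changes of more than 1.5-fold were found in 321 shared rises (2.17% of tested rows) and 309 shared falls (2.09%), more than 2-fold in 112 rises and 91 falls, and more than 4-fold in 17 rises and 4 falls. In 1159 of the 2018 shared rows no KD library overlapped a CT library in either stage, a pattern that 1223 of all tested rows, 8.28%, showed, 631 of them upward (4.27%) and 592 downward (4.01%). The sizes differed between the stages for 232 shared rows at an adjusted p under 0.05 for the interaction, 11.5% against 9.25% of all tested rows. Of these 182 changed more in poGC and 50 more in phGC.

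**Figure D1:**
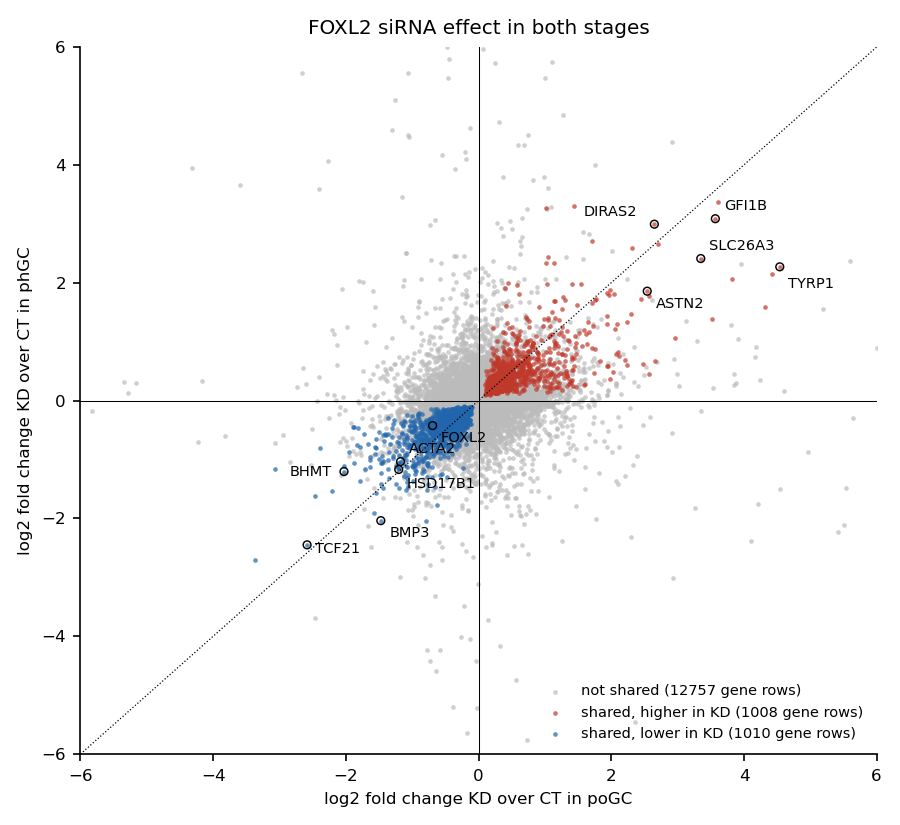
The log2 fold change of KD over CT in poGC (x axis) and in phGC (y axis) for each of 14775 tested gene rows, 36 of which lie beyond the axes, with shared rises in red, shared falls in blue and equal change on the dotted line. The 1008 red and 1010 blue points fill the quadrants of equal sign, and named points such as DIRAS2 and TCF21 sit near the dotted line while TYRP1 and BHMT changed more in poGC.

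The largest shared rises without overlap between KD and CT libraries were in genes with low control levels. TYRP1, an enzyme of melanosomes, stood at 0.113, 0.371, 0.422 and 0.141 CPM in poGC-CT against 6.61, 5.78, 6.73 and 5.82 CPM in poGC-KD. In phGC, TYRP1 had 0.256, 0.304, 0.448 and 0.215 CPM in phGC-CT against 1.72, 1.09, 1.36 and 1.75 CPM in phGC-KD (average log2 fold change 3.46, SE 0.40, adjusted p = 1.51e-05). IGSF11, an immunoglobulin-type adhesion molecule, followed with log2 fold changes of 4.42 in poGC and 2.15 in phGC. Both rose more in poGC than in phGC, with adjusted p for the interaction of 0.00851 and 0.0132. Of the other melanocyte markers, TYR, MLANA, SOX10, OCA2 and SLC45A2 had means of at most 0.0597 FPKM in any group, and DCT at most 0.137. PMEL had group means of 1.19 FPKM in poGC-CT, 1.10 in poGC-KD, 4.77 in phGC-CT and 4.19 in phGC-KD.

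GFI1B, a zinc-finger repressor of the erythroid and megakaryocyte lineages, rose alike in both stages and stood at 0.0844, 0.0655, 0.0766 and 0.121 CPM in poGC-CT against 0.579, 1.264, 1.28 and 1.14 CPM in poGC-KD. In phGC, GFI1B had 0.545, 1.07, 0.704 and 0.399 CPM in phGC-CT against 6.15, 7.20, 4.29 and 5.496 CPM in phGC-KD (average log2 fold change 3.28, SE 0.24, adjusted p = 2.09e-07). DIRAS2, a small GTPase of the Ras family, was 0.985, 0.371, 0.728 and 0.664 CPM in poGC-CT against 5.04, 3.43, 3.80 and 4.96 CPM in poGC-KD. In phGC, DIRAS2 had 0.48, 0.487, 0.799 and 1.29 CPM in phGC-CT against 7.50, 6.67, 5.18 and 5.08 CPM in phGC-KD (average log2 fold change 2.82, SE 0.23, adjusted p = 5.28e-07). For both genes the KD libraries lay above all CT libraries of their stage, GFI1B at very low levels in poGC. SLC26A3, an exchanger of chloride and bicarbonate, was 2.36, 2.18, 1.86 and 2.01 CPM in poGC-CT against 19.6, 20.9, 21.6 and 23.7 CPM in poGC-KD. In phGC, SLC26A3 had 1.83, 1.49, 2.14 and 2.64 CPM in phGC-CT against 11.97, 10.4, 10.1 and 10.7 CPM in phGC-KD (average log2 fold change 2.89, SE 0.16, adjusted p = 1.81e-08). The CT levels of SLC26A3 were alike in both stages, and its rise was larger in poGC (adjusted p = 0.00733).

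ASTN2, an astrotactin that traffics membrane proteins in neurons, was the most abundant in CPM of the rises above 4-fold that are named here, with 5.43, 4.50, 5.81 and 6.28 CPM in poGC-CT against 35.4, 31.0, 32.0 and 29.997 CPM in poGC-KD. In phGC, ASTN2 had 12.9, 17.1, 14.2 and 15.3 CPM in phGC-CT against 59.1, 51.2, 52.2 and 52.9 CPM in phGC-KD (average log2 fold change 2.19, SE 0.12, adjusted p = 1.11e-08). Levels were higher in phGC than in poGC under either siRNA, and every KD library exceeded every CT library of both stages. CMBL, a hydrolase, rose by 2.98 on the log2 scale, CHRM2, a muscarinic acetylcholine receptor, by 2.49, NXPH4, a neurexophilin, by 2.30, and FAM132A, a secreted protein with a C1q-type domain, by 2.17. TRIL, which assists Toll-like receptors, rose by 2.08, GGT5, a gamma-glutamyltransferase that acts on leukotrienes, by 1.94, TMEM72, a membrane protein, by 1.90, and SLC16A12, a creatine transporter, by 1.88. FAM78A rose by 1.79 with a wide spread, as its 4 poGC-KD libraries ran from 40.7 to 199 CPM, against 20.6 to 24.1 CPM in poGC-CT. Of the 15 largest rises and 15 largest falls together, 15 genes were also picked for qRT-PCR from these same libraries, which is no independent evidence.

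The largest shared falls were in transcription factors, secreted factors, enzymes of betaine metabolism and actin-linked proteins. TCF21, a helix-loop-helix factor of mesenchymal cells that represses steroidogenic factor 1 in the mouse gonad, was 0.281, 0.982, 0.862 and 0.584 CPM in poGC-CT against 0.103, 0.0643, 0.263 and 0 CPM in poGC-KD. In phGC, TCF21 had 2.50, 2.77, 4.25 and 2.83 CPM in phGC-CT against 0.587, 0.763, 0.341 and 0.564 CPM in phGC-KD (average log2 fold change -2.51, SE 0.41, adjusted p = 0.000299). INSM1, a zinc-finger factor of endocrine cells, fell by 1.88 on the log2 scale, and MSX1, a homeobox factor downstream of BMP signals, by 1.44 with nearly equal falls of -1.47 in poGC and -1.41 in phGC. BMP3, a BMP family ligand that opposes other BMPs, was 3.24, 5.57, 5.65 and 4.95 CPM in poGC-CT against 1.80, 1.82, 1.65 and 1.72 CPM in poGC-KD. In phGC, BMP3 had 11.4, 12.7, 7.26 and 11.3 CPM in phGC-CT against 3.80, 1.23, 2.42 and 2.91 CPM in phGC-KD (average log2 fold change -1.76, SE 0.21, adjusted p = 1.59e-05). The groups of TCF21 and BMP3 did not overlap in either stage, although the lowest poGC-CT library of TCF21, at 0.281 CPM, lay close to the highest poGC-KD library, at 0.263 CPM.

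BHMT, which uses betaine to turn homocysteine into methionine, was the most abundant in CPM of the 15 largest falls, with 441, 499.8, 410.1 and 435 CPM in poGC-CT against 95.6, 122, 113 and 107 CPM in poGC-KD. In phGC, BHMT had 119, 119.6, 136 and 112 CPM in phGC-CT against 49.0, 43.4, 60.2 and 58.5 CPM in phGC-KD (average log2 fold change -1.62, SE 0.13, adjusted p = 3.98e-07). DMGDH, the enzyme that takes the product of BHMT further, fell by 1.39 on the log2 scale, and SARDH, the next enzyme of that chain, by 0.46. PCK1, the rate-limiting enzyme of gluconeogenesis, was 21.5, 22.8, 23.8 and 21.2 CPM in poGC-CT against 5.58, 5.31, 5.996 and 4.91 CPM in poGC-KD. In phGC, PCK1 had 16.5, 19.1, 14.6 and 16.03 CPM in phGC-CT against 7.97, 6.73, 8.79 and 7.10 CPM in phGC-KD (average log2 fold change -1.58, SE 0.14, adjusted p = 9.88e-07). BHMT and PCK1 fell more in poGC than in phGC, with adjusted p for the interaction of 0.00238 and 0.00086. The remaining large falls were ANGPTL6 (-1.57) and ANGPT1L (-1.40), by their symbols members of the angiopoietin-like family, the gastrokine GKN2 (-1.46), the actin-severing protein SCIN (-1.35) and the lens filament protein BFSP1 (-1.300), all as log2 fold changes.

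**Figure D2:**
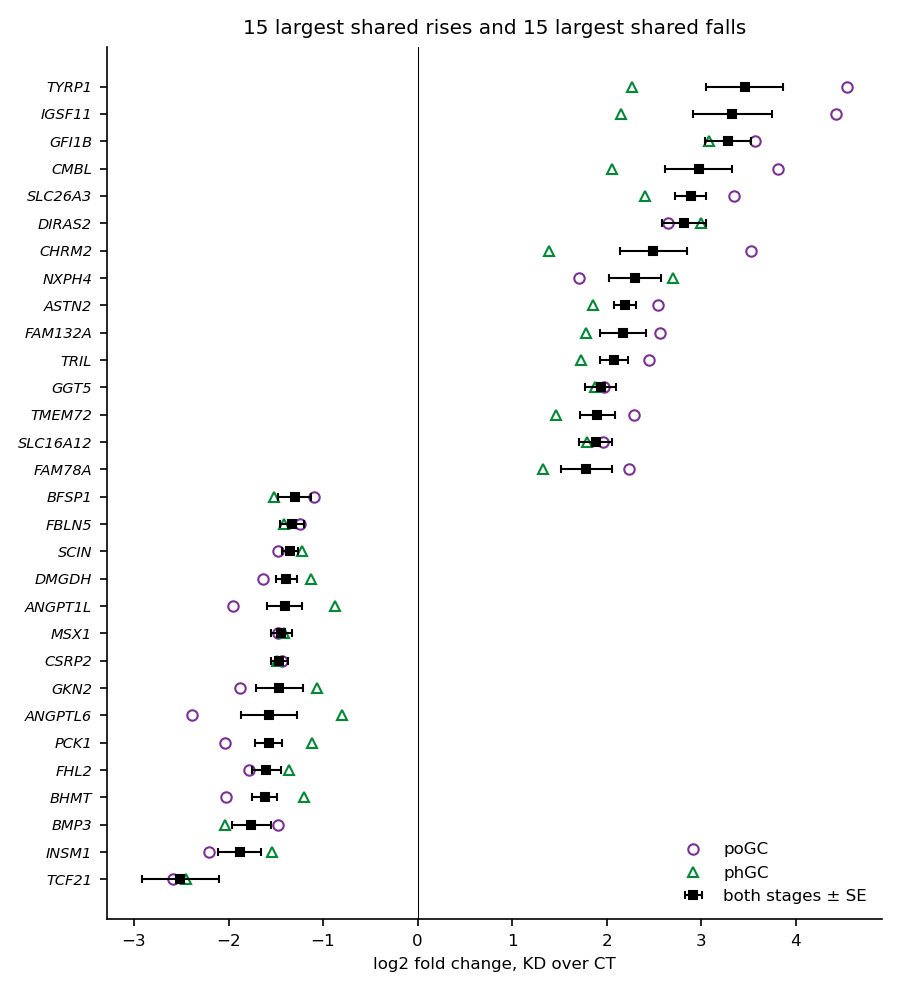
Log2 fold changes of KD over CT for the 15 largest shared rises and the 15 largest shared falls without overlap between libraries, with squares for the average of both stages and bars for its standard error, circles for poGC and triangles for phGC. The averages run from -2.51 for TCF21 to 3.46 for TYRP1, and circles lie farther from 0 than triangles for TYRP1, IGSF11, CHRM2, BHMT and PCK1.

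Of the 10 shared genes with the smallest p-values, SLC26A3 and ASTN2, described above, changed by 7.41-fold and 4.58-fold and rose more in poGC. The other 8 changed by 1.59-fold to 2.14-fold, and none of them had an interaction at an adjusted p under 0.05. HHIPL2, a relative of the hedgehog-interacting protein, was 319.8, 311, 324 and 321 CPM in poGC-CT against 599, 602, 623 and 630.0 CPM in poGC-KD. In phGC, HHIPL2 had 38.4, 46.6, 44.9 and 42.1 CPM in phGC-CT against 93.0, 76.6, 93.5 and 85.6 CPM in phGC-KD (average log2 fold change 0.98, SE 0.05, adjusted p = 7.45e-09). Its level was far higher in poGC than in phGC, while the log2 rise was 0.94 in poGC and 1.02 in phGC. VAT1, a vesicle membrane protein, was 706, 679, 686 and 720.2 CPM in poGC-CT against 389, 405, 376 and 431 CPM in poGC-KD. In phGC, VAT1 had 477, 485, 447 and 454 CPM in phGC-CT against 287, 274, 294 and 291 CPM in phGC-KD (average log2 fold change -0.75, SE 0.04, adjusted p = 7.45e-09). KIF25, a kinesin, fell by 1.10 on the log2 scale and BTG2, an antiproliferative gene that is induced by p53, by 0.67. GFPT2, the entry enzyme of the hexosamine pathway, rose by 0.85 and CORO2A, a coronin, by 0.87. The adjusted p for the interaction of these 6 genes ran from 0.191 to 0.967.

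Among abundant genes, the shared rises above 1.5-fold with the highest mean FPKM were RLN1, RP5-877J2.1, HHIPL2, KRT19 and SLC2A3. RLN1, named for the hormone relaxin, was 1732, 1879, 1749 and 1796 CPM in poGC-CT against 2424, 2494, 2467 and 2236 CPM in poGC-KD. In phGC, RLN1 had 73.6, 85.3, 85.1 and 90.7 CPM in phGC-CT against 199, 263, 198 and 178 CPM in phGC-KD (average log2 fold change 0.87, SE 0.13, adjusted p = 0.00018). It was far higher in poGC, where the rise was 0.43 on the log2 scale, and rose more in phGC, by 1.32 (adjusted p for the interaction = 0.000764). The opposite order held for RP5-877J2.1, a symbol with no role given in the sources used here, with 1.18 in poGC and 0.56 in phGC (adjusted p for the interaction = 0.000523). SLC2A3, a glucose transporter, rose by 0.75 in poGC and 0.68 in phGC.

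The abundant falls were HPGDS, APLP2, MGP, MMP9 and NOV. NOV, a matricellular protein also called CCN3, was 1109, 1184, 1379 and 1241 CPM in poGC-CT against 596, 612, 693 and 642 CPM in poGC-KD. In phGC, NOV had 1226, 1356, 1589 and 1220.1 CPM in phGC-CT against 642, 644, 671 and 593 CPM in phGC-KD (average log2 fold change -1.02, SE 0.06, adjusted p = 3.27e-08). Each NOV library of KD lay below each CT library of both stages. APLP2, a relative of the amyloid precursor protein, fell by 0.79 on the log2 scale, with 3678 to 3781 CPM in poGC-CT against 1847 to 2073 CPM in poGC-KD, and 3695 to 4226 CPM in phGC-CT against 2335 to 2592 CPM in phGC-KD. MGP, an inhibitor of calcification bound to the matrix, fell by 1.16, and more so in poGC (adjusted p for the interaction = 0.0252).

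Transcription factors of the gonad moved in both directions. This list and those below were compiled by hand with earlier results of these data known. Of 29 tested members of the list 5 rose and 7 fell, where 13.2% and 12% of all gene rows did so. Shared were 4 rises and 4 falls, 13.8% each against 6.82% and 6.84% of all gene rows. The median log2 fold change of the list was -0.11. GATA4, a partner of steroidogenic factor 1 at steroid and inhibin genes, was 138, 128, 151 and 141 CPM in poGC-CT against 257, 230.3, 226 and 225 CPM in poGC-KD. In phGC, GATA4 had 191, 170.0, 139 and 163 CPM in phGC-CT against 328, 253, 297 and 297 CPM in phGC-KD (average log2 fold change 0.79, SE 0.07, adjusted p = 5.67e-07). NR0B1, the orphan receptor DAX1 that represses steroidogenic factor 1, was 2.42, 2.69, 1.90 and 2.23 CPM in poGC-CT against 5.04, 6.17, 4.33 and 3.97 CPM in poGC-KD. In phGC, NR0B1 had 19.8, 21.1, 25.2 and 23.6 CPM in phGC-CT against 45.9, 78.0, 44.8 and 45.8 CPM in phGC-KD (average log2 fold change 1.17, SE 0.13, adjusted p = 9.3e-06). The groups of both genes were apart in each stage, and the second phGC-KD library of NR0B1 stood well above the other 3.

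NR5A2, the orphan receptor LRH1, was 96.3, 89.7, 91.1 and 101 CPM in poGC-CT against 200.5, 208, 189 and 189 CPM in poGC-KD. In phGC, NR5A2 had 0.865, 0.70, 0.416 and 1.38 CPM in phGC-CT against 1.63, 2.09, 1.22 and 1.34 CPM in phGC-KD (average log2 fold change 1.004, SE 0.14, adjusted p = 6.47e-05). In phGC it rested on 13 to 75 counts per library and the groups overlapped, and the log2 changes were 1.06 in poGC and 0.89 in phGC. EMX2, a homeobox factor needed for the early gonad, rose by 0.34 on the log2 scale. The shared falls, beside FOXL2 and TCF21, were NR2F2 (-0.63), an orphan receptor of stromal cells, and CEBPA (-0.62), a factor of differentiated cells. The 12 markers of theca and stroma, TCF21 and NR2F2 among them, summed to 239 to 265 FPKM in poGC-CT, 159 to 169 in poGC-KD, 884 to 986 in phGC-CT and 849 to 991 in phGC-KD, so that the sum was lower in KD in poGC and overlapped in phGC. By group means TCF21, NR2F2, PDGFRA, DCN and COL3A1 were lower in KD in both stages, and COL1A1, PDGFRB and LUM were higher. CYP17A1 was lower in poGC-KD and higher in phGC-KD. CYP19A1, DPT and OGN had group means of at most 0.0192 FPKM, and the part of theca and stroma cells was not tested. NR5A1, steroidogenic factor 1 itself, passed the average test (0.30, adjusted p = 0.00825) with log2 changes of 0.07 in poGC and 0.53 in phGC.

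Steroid hormone genes gave 2 shared rises and 2 shared falls among 18 tested, 11.1% each against 6.82% and 6.84% of all gene rows, with a median of 0.02. HSD17B1, which turns estrone into estradiol, was 64.2, 85.6, 72.0 and 69.0 CPM in poGC-CT against 31.2, 32.2, 34.4 and 28.5 CPM in poGC-KD. In phGC, HSD17B1 had 158, 204, 235 and 198 CPM in phGC-CT against 91.0, 104, 80.6 and 77.5 CPM in phGC-KD (average log2 fold change -1.19, SE 0.09, adjusted p = 1.49e-07). Its KD level was below every CT level of its own stage, and the falls of -1.20 in poGC and -1.17 in phGC were alike (adjusted p for the interaction = 0.945). SULT1E1, which inactivates estrogens by sulfation, rose by 0.73 on the log2 scale, STARD4, a cholesterol carrier, rose by 0.43, and POR, the electron donor of the steroid hydroxylases, fell by 0.25.

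The genes at the start of progesterone synthesis gave no average change. STAR, which brings cholesterol into mitochondria, had a log2 fold change of -0.01 (adjusted p = 0.967) that joined -0.47 in poGC with 0.46 in phGC, a difference that passed the interaction test (adjusted p = 0.00401). CYP11A1, the side-chain cleavage enzyme, had 0.11 (adjusted p = 0.187) and FSHR, the receptor of follicle-stimulating hormone, 0.09 (adjusted p = 0.451). AMH, a hormone of immature granulosa cells, likewise had -0.91 in poGC and 0.20 in phGC (adjusted p for the interaction = 0.00263). Among 19 hormone receptors tested 3 rises (15.8%) and 1 fall (5.26%) were shared, against 6.82% and 6.84% of all gene rows. The rises were THRA (0.25), IGF1R (0.43) and NR3C1 (0.45), the receptors of thyroid hormone, insulin-like growth factor and glucocorticoid. The fall was PGR, the progesterone receptor (-0.78), all as log2 fold changes. PGR was low, with means of 0.742 CPM in poGC-CT and 0.395 CPM in poGC-KD, and its groups overlapped in phGC. Under the 24 alternatives the shared rises of this list numbered 1 to 4, and the shared fall was lost in 4 of them.

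**Figure D3:**
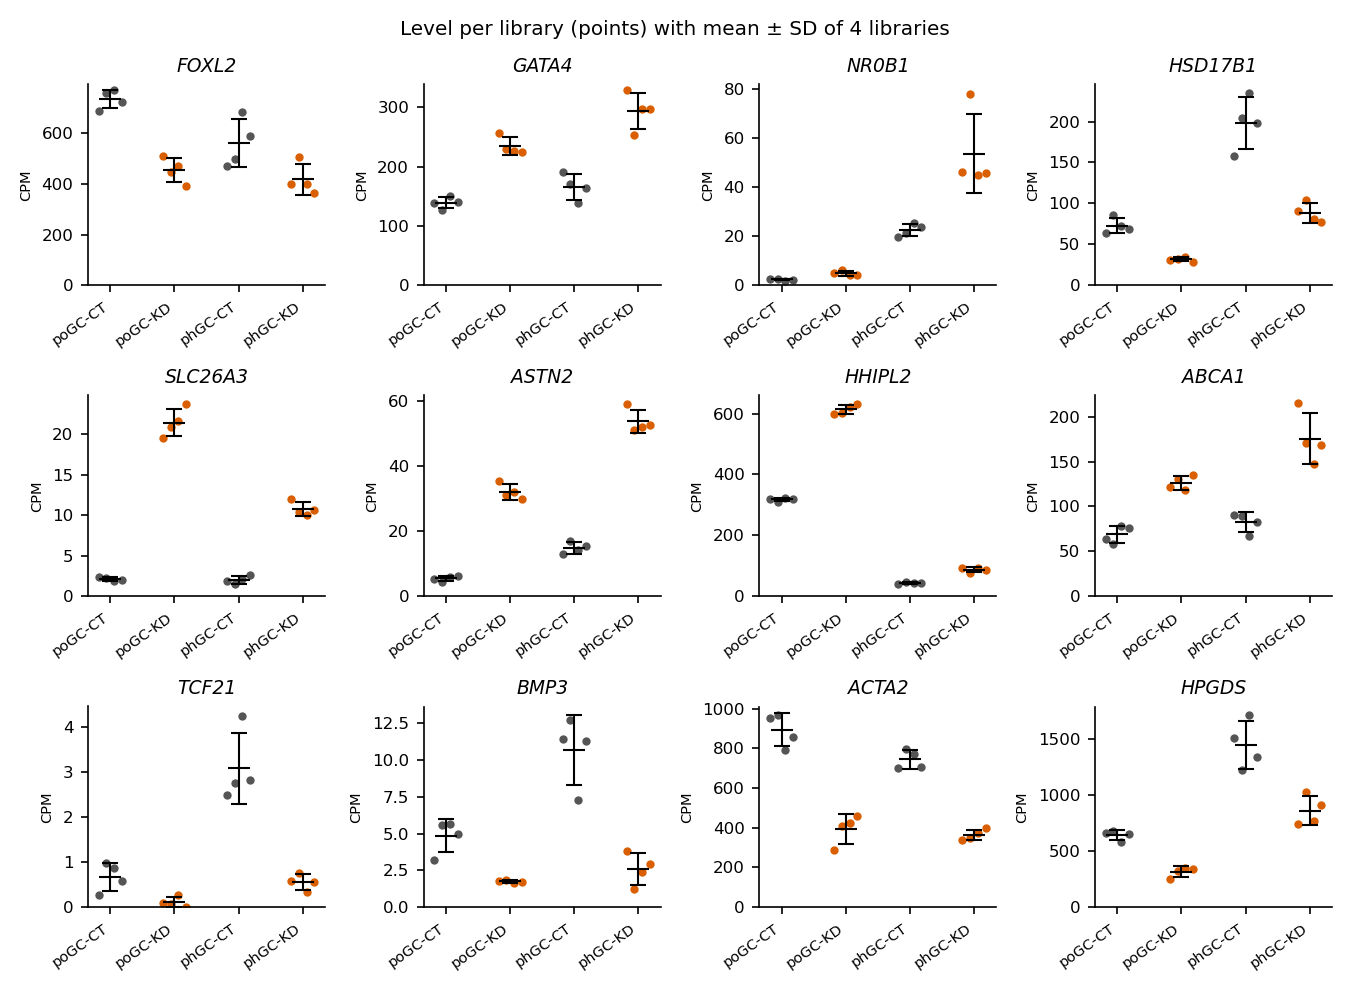
CPM per library for 12 genes in the 4 groups, grey points for CT and orange points for KD, with the mean and SD of 4 libraries in black and each axis starting at 0. KD and CT points are apart in both stages for 11 of the genes, and FOXL2 is the one whose phGC points overlap.

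The prostaglandin and cumulus matrix genes that moved in both stages mostly fell. Of 27 tested rows 4 rose and 10 fell, where 13.2% and 12% of all gene rows did so. Shared were 8 falls (29.6%) and 3 rises (11.1%), against 6.84% and 6.82% of all gene rows. The median of the list was -0.22. HPGDS, which makes prostaglandin D, was 659, 679, 585 and 649.6 CPM in poGC-CT against 249, 325, 348 and 343 CPM in poGC-KD. In phGC, HPGDS had 1509.8, 1219, 1715 and 1339 CPM in phGC-CT against 742, 1022, 769 and 908 CPM in phGC-KD (average log2 fold change -0.89, SE 0.10, adjusted p = 6.23e-06). PTGS2, the inducible cyclooxygenase that drives ovulation, was 469, 408, 426 and 429 CPM in poGC-CT against 176, 211, 202 and 216 CPM in poGC-KD. In phGC, PTGS2 had 280.0, 212, 193 and 240.4 CPM in phGC-CT against 174, 183, 193 and 171 CPM in phGC-KD (average log2 fold change -0.73, SE 0.12, adjusted p = 0.000258). HPGDS groups were apart in each stage, and those of PTGS2 were apart in poGC and overlapped in phGC, where its fall of -0.36 was smaller than the -1.10 of poGC (adjusted p for the interaction = 0.00316).

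PLA2G4A, which frees arachidonic acid for the cyclooxygenases, fell by 0.76 on the log2 scale and PTGS1, the constitutive cyclooxygenase, by 0.32. The matrix proteoglycan VCAN fell by 0.67, the hyaluronan receptor CD44 by 0.83, the link protein HAPLN1 by 0.51 and the protease ADAMTS1 by 0.45. HAS2, which makes hyaluronan, rose instead, with 1.13, 1.59, 1.67 and 1.65 CPM in poGC-CT against 3.08, 3.62, 2.65 and 2.61 CPM in poGC-KD. In phGC, HAS2 had 0.288, 0.335, 0.384 and 0.399 CPM in phGC-CT against 0.826, 1.09, 1.31 and 0.475 CPM in phGC-KD (average log2 fold change 1.17, SE 0.19, adjusted p = 0.000339). All of these levels were low. The prostaglandin E receptor PTGER4 (0.64) and HMMR (0.84), a hyaluronan receptor that is also a spindle protein, were the other shared rises.

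Among 8 tested FOXL2 targets that the study names, 1 rise (12.5%) and 2 falls (25.0%) were shared, against 6.82% and 6.84% of all rows. These were HAS2, PTGS2 and FAS, the death receptor, which was 121, 118, 124 and 121 CPM in poGC-CT against 49.1, 60.2, 55.6 and 65.1 CPM in poGC-KD. In phGC, FAS had 41.1, 34.9, 33.1 and 36.3 CPM in phGC-CT against 25.5, 23.8, 22.2 and 20.4 CPM in phGC-KD (average log2 fold change -0.87, SE 0.08, adjusted p = 1.81e-06). FAS groups were apart in each stage. STAR, also of that list, is described above. In the average test 5 of the 8 were not called, where 25.2% of all gene rows were called. An interaction at an adjusted p under 0.05 was found for 4, against 9.25% of all gene rows. The median log2 fold change of the list was -0.58 in poGC and 0.27 in phGC. CYP17A1, which the study cites as repressed by FOXL2, was lower in poGC-KD and higher in phGC-KD by group means. HAS2, the shared rise, was not tested when 10 counts in every library were required, as it fell short of them in phGC-CT.

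Genes of the contractile apparatus of smooth muscle showed the highest share of shared falls among the lists examined. As the lists were chosen with earlier results of these data known, such shares are no independent evidence. Of 40 tested rows for 36 symbols, 21 fell and 1 rose, where 12% and 13.2% of all gene rows did so. Shared were 18 falls, 45.0%, against 6.84% of all tested rows. The median log2 fold change of the list was -0.31 against -0.0004. ACTA2, the smooth muscle actin, was 954, 969.7, 793 and 859 CPM in poGC-CT against 288, 407, 425 and 461 CPM in poGC-KD. In phGC, ACTA2 had 701, 799, 772 and 708 CPM in phGC-CT against 336, 348, 371 and 398 CPM in phGC-KD (average log2 fold change -1.11, SE 0.08, adjusted p = 2.23e-07). TAGLN, the actin-binding transgelin, was 25.6, 29.9, 22.9 and 22.1 CPM in poGC-CT against 9.26, 8.68, 10.6 and 10.5 CPM in poGC-KD. In phGC, TAGLN had 36.3, 35.2, 52.0 and 42.9 CPM in phGC-CT against 15.9, 19.5, 20.5 and 18.6 CPM in phGC-KD (average log2 fold change -1.261, SE 0.10, adjusted p = 2.72e-07). For both genes every KD library lay below every CT library of its stage by a wide margin.

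CSRP2, a LIM protein of muscle, was 33.8, 33.7, 31.5 and 30.6 CPM in poGC-CT against 9.65, 13.3, 12.6 and 12.3 CPM in poGC-KD. In phGC, CSRP2 had 21.8, 18.6, 27.3 and 19.2 CPM in phGC-CT against 6.69, 8.46, 7.48 and 8.38 CPM in phGC-KD (average log2 fold change -1.46, SE 0.09, adjusted p = 3.23e-08). FHL2, another LIM protein, fell by 1.60 on the log2 scale, ACTG2, the enteric actin, by 1.297, PDLIM3 by 1.11, CALD1, caldesmon, by 1.01, and ACTN1, alpha-actinin, by 0.78. Smaller falls were found for TPM1, a tropomyosin (-0.58), CNN1, calponin (-0.53), VCL, vinculin (-0.39), MYL9, a myosin light chain (-0.29), and SRF, the serum response factor that drives these genes (-0.27). The one riser, TMOD1, an actin-capping protein, had a log2 fold change of 2.04 at levels of 0.327 to 0.507 CPM in poGC-CT against 0.707 to 1.03 CPM in poGC-KD, and 0.0921 to 0.224 CPM in phGC-CT against 0.391 to 2.72 CPM in phGC-KD. Its shared call was lost under several alternative settings.

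CYR61 and CTGF, matricellular genes that respond to cell tension, fell as well. CYR61 was 509.8, 529, 545 and 527 CPM in poGC-CT against 280.3, 292, 305 and 248 CPM in poGC-KD. In phGC, CYR61 had 196, 153, 224 and 179.9 CPM in phGC-CT against 87.2, 99.2, 82.3 and 95.5 CPM in phGC-KD (average log2 fold change -0.98, SE 0.07, adjusted p = 1.42e-07). CTGF fell by 0.37 on the log2 scale. The 9 smooth muscle markers fell in sum from 286 to 341 FPKM in poGC-CT to 118 to 172 in poGC-KD and from 279.9 to 306 in phGC-CT to 141 to 163 in phGC-KD. Most of the sum was ACTA2, with group means of 273 FPKM in poGC-CT, 127 in poGC-KD, 239.8 in phGC-CT and 118 in phGC-KD. Other members were higher in KD in 1 stage. In poGC these were MYH11, with 0.311 in CT and 0.521 in KD, and DES, with 0.370 and 0.372. In phGC they were LMOD1, with 7.55 in CT and 9.81 in KD, and SYNPO2, with 0.132 and 0.145. MYOCD had group means of 10.2 FPKM in poGC-CT, 7.38 in poGC-KD, 5.73 in phGC-CT and 5.05 in phGC-KD. MYH11, the myosin heavy chain that defines the type, had group means of 0.0321 to 0.521 FPKM, and none of the 9 markers was at 0 in all libraries. The part of such cells in the result was not tested.

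Secreted and membrane matrix genes moved in both directions, with falls in fibulins and proteases and rises in several integrin and laminin chains. Of 53 laminins, integrins and matrix glycoproteins 15 rose and 13 fell, with 11 shared rises (20.8%) and 9 shared falls (17.0%). Of all gene rows 13.2% rose and 12% fell, and 6.82% were shared rises and 6.84% shared falls. EFEMP1, a fibulin, was 224, 218, 172 and 196 CPM in poGC-CT against 56.1, 68.8, 74.8 and 75.5 CPM in poGC-KD. In phGC, EFEMP1 had 603, 567, 565 and 565 CPM in phGC-CT against 337, 349, 321 and 325 CPM in phGC-KD (average log2 fold change -1.17, SE 0.12, adjusted p = 3.3e-06). FBLN5 fell by 1.33 on the log2 scale, FBLN1 by 0.96, LAMB1, a laminin beta chain, by 0.76, THBS1, a thrombospondin, by 0.65 and ITGA11, a collagen-binding integrin, by 0.73. ITGB5, a vitronectin-binding integrin chain, was 18.8, 21.4, 18.8 and 20.1 CPM in poGC-CT against 37.1, 37.6, 37.3 and 35.4 CPM in poGC-KD. In phGC, ITGB5 had 36.2, 42.2, 44.0 and 42.7 CPM in phGC-CT against 68.9, 75.5, 69.9 and 74.7 CPM in phGC-KD (average log2 fold change 0.85, SE 0.05, adjusted p = 1.81e-08).

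Its ligand VTN, vitronectin, rose by 0.64 on the log2 scale, its partner ITGAV by 0.51, the collagen-binding ITGA2 by 0.74 and the laminin chain LAMC3 by 0.86. Among 38 rows for collagens only 4 rises and 2 falls were shared, 10.5% and 5.26%, against 6.82% and 6.84% of all gene rows. COL6A3 rose by 1.20 and COL23A1 by 1.34, whereas COL8A1, a collagen of vessel walls and basement membranes, fell by 1.16.

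Matrix proteases and their inhibitors fell more often than they rose. Of 40 tested rows 6 rose and 17 fell, where 13.2% and 12% of all gene rows did so. Shared were 10 falls (25.0%) and 3 rises (7.50%), and the median of the list was -0.32. Shared falls were 6.84% and shared rises 6.82% of all gene rows, so that the share of rises was near that of all rows. PLAU, the urokinase that activates plasminogen and is made by granulosa cells of growing follicles, was 314, 265, 263 and 318 CPM in poGC-CT against 66.1, 84.6, 89.6 and 96.1 CPM in poGC-KD. In phGC, PLAU had 1199, 903, 1398 and 1134 CPM in phGC-CT against 550.4, 830.4, 610.0 and 697 CPM in phGC-KD (average log2 fold change -1.28, SE 0.17, adjusted p = 4.1e-05). MMP9, a gelatinase, was 153, 171, 142 and 152 CPM in poGC-CT against 66.2, 71.7, 72.8 and 67.3 CPM in poGC-KD. In phGC, MMP9 had 2696, 2389.7, 3330.2 and 2915 CPM in phGC-CT against 1481, 2300.5, 1765 and 2108 CPM in phGC-KD (average log2 fold change -0.86, SE 0.11, adjusted p = 4.69e-05). PLAU and MMP9 were apart in each stage and fell more in poGC, with adjusted p for the interaction of 0.00733 and 0.0456.

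MMP13, a collagenase, fell by 0.92 on the log2 scale, MMP10, a stromelysin, by 0.66, and ADAM12 by 0.83. SERPINF1, the antiangiogenic factor PEDF, rose by 0.77, more in phGC (1.15) than in poGC (0.39; adjusted p for the interaction = 0.00251). In the adhesion list of cadherins, claudins and connexins 6 of 40 rows were shared falls (15%) and 3 were shared rises (7.50%). The shares over all gene rows were 6.84% and 6.82%. CDH1, the epithelial cadherin, was lower in KD (average log2 fold change -1.41, SE 0.34, adjusted p = 0.00621) with 4.08 to 19.6 CPM in poGC-CT against 2.12 to 5.60 CPM in poGC-KD, and 229 to 312 CPM in phGC-CT against 59.9 to 219 CPM in phGC-KD, and its groups overlapped in poGC. GJA1, the main gap junction protein of granulosa cells, fell by 0.30.

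**Figure D4:**
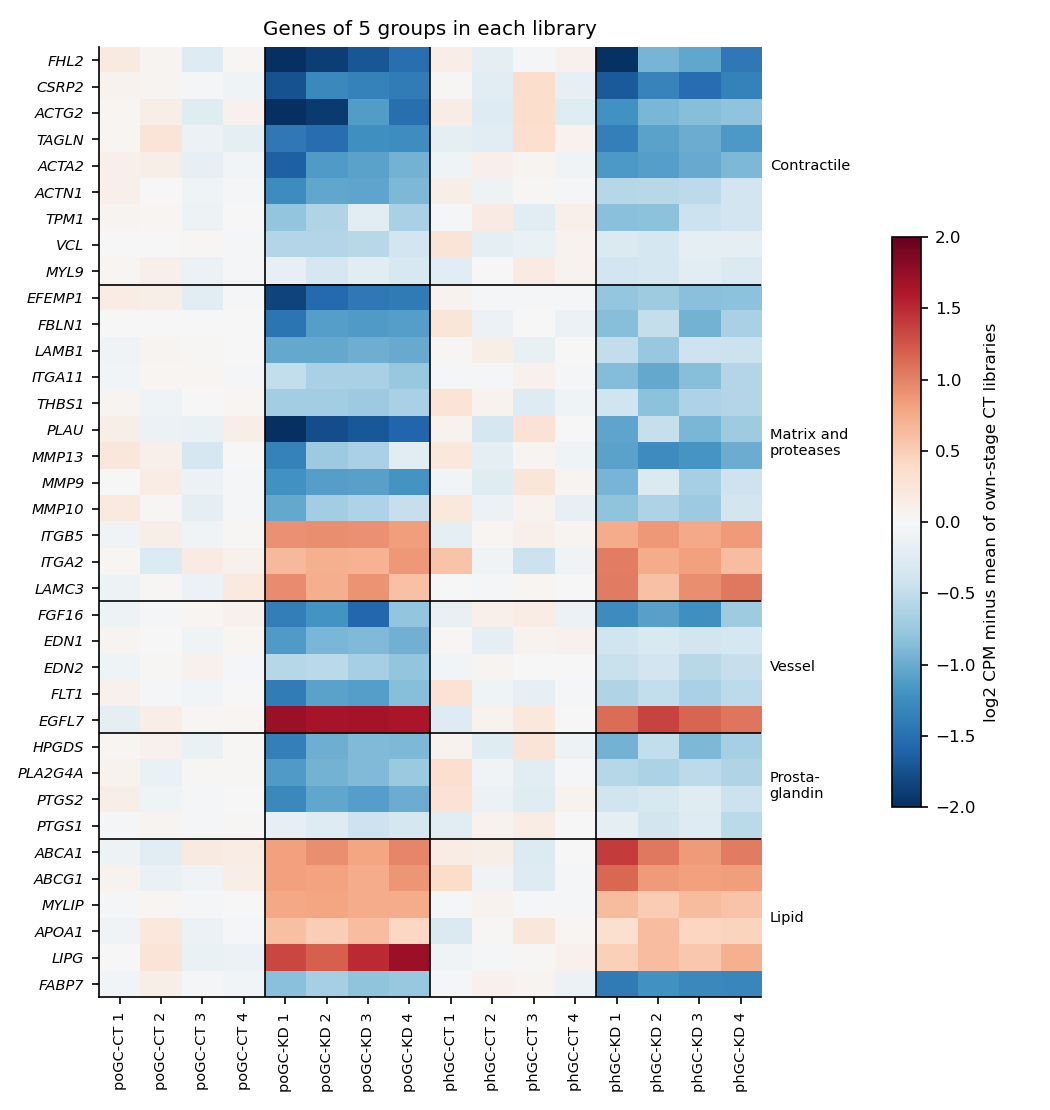
Log2 CPM of 36 genes in each of the 16 libraries, less the mean of the 4 CT libraries of the same stage, with blue for lower and red for higher levels in 5 groups of genes separated by lines. Contractile and prostaglandin genes are blue in the KD libraries of both stages, most lipid genes are red, and the shades are deeper in poGC-KD than in phGC-KD for genes such as PLAU, EFEMP1 and EGFL7.

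The vessel-related genes that moved in both stages nearly all fell. Of 44 tested rows 2 rose and 16 fell, where 13.2% and 12% of all gene rows did so. Shared were 12 falls, 27.3%, and 1 rise, and the median of the list was -0.20. Shared falls were 6.84% and shared rises 6.82% of all gene rows. EDN2, an endothelin needed for follicle rupture in the mouse, was 405, 435, 458 and 422 CPM in poGC-CT against 290.2, 296, 270.3 and 249.7 CPM in poGC-KD. In phGC, EDN2 had 269.9, 289.9, 282 and 278 CPM in phGC-CT against 205, 215, 191 and 203 CPM in phGC-KD (average log2 fold change -0.55, SE 0.05, adjusted p = 6.99e-07). FGF16, a fibroblast growth factor, was 9.06, 9.43, 9.96 and 10.3 CPM in poGC-CT against 3.68, 4.20, 3.24 and 5.60 CPM in poGC-KD. In phGC, FGF16 had 24.7, 29.4, 30.4 and 25.1 CPM in phGC-CT against 11.4, 12.9, 11.7 and 16.7 CPM in phGC-KD (average log2 fold change -1.14, SE 0.11, adjusted p = 2.26e-06). EDN2 and FGF16 were apart in each stage, with no interaction at an adjusted p under 0.05 (0.224 and 0.754).

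EDN1 fell by 0.67 on the log2 scale, its receptor EDNRB by 0.85, the VEGF receptor FLT1 by 0.84, ANGPT2, an angiopoietin that loosens vessels, by 0.62, ANGPTL2 by 0.96 and the FGF receptor FGFR3 by 0.82. The one shared rise was FGFRL1, a decoy-type FGF receptor (0.51). EDN1, EDNRB and FLT1 fell more in poGC, with adjusted p for the interaction of 0.000597, 7.91e-05 and 0.0452. Of the endothelium markers, EGFL7 rose (average log2 fold change 1.42, SE 0.09, adjusted p = 4.91e-08) with 13.7 to 17.2 CPM in poGC-CT against 48.8 to 51.7 CPM in poGC-KD, and 20.2 to 28.1 CPM in phGC-CT against 51.2 to 62.2 CPM in phGC-KD, while CDH5 (-1.20) and PLVAP (-1.04) fell on the log2 scale.

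The 10 endothelium markers summed to 54.0 to 109.8 FPKM in poGC-CT, 73.4 to 84.9 in poGC-KD, 48.2 to 58.5 in phGC-CT and 81.3 to 92.0 in phGC-KD. The sum overlapped in poGC and was higher in KD without overlap in phGC. CLDN5 was its largest part in every group, with 41.3 FPKM in poGC-CT, 34.1 in poGC-KD, 31.8 in phGC-CT and 48.7 in phGC-KD. TIE1 had group means of 0.762 to 1.65 FPKM and ESAM of at most 0.565. VWF, TEK, KDR and ROBO4 had group means of at most 0.358 FPKM. The part of such cells was not tested.

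Several lipid efflux genes rose in both stages. Of 48 tested rows for lipid efflux and fatty acid metabolism 12 rose and 8 fell, where 13.2% and 12% of all gene rows did so. Shared were 10 rises (20.8%) and 4 falls (8.33%), against 6.82% and 6.84% of all gene rows. ABCA1, which loads cholesterol onto apolipoprotein A1, was 63.7, 58.6, 77.8 and 76.0 CPM in poGC-CT against 121, 131, 119 and 135 CPM in poGC-KD. In phGC, ABCA1 had 90.6, 89.5, 67.5 and 82.8 CPM in phGC-CT against 216, 171, 148 and 168 CPM in phGC-KD (average log2 fold change 0.98, SE 0.09, adjusted p = 1.23e-06). ABCG1, its partner in efflux to high-density lipoprotein, was 67.1, 57.8, 60.3 and 69.9 CPM in poGC-CT against 112, 111, 107 and 117 CPM in poGC-KD. In phGC, ABCG1 had 58.1, 43.0, 38.0 and 44.3 CPM in phGC-CT against 100.2, 81.9, 80.4 and 81.1 CPM in phGC-KD (average log2 fold change 0.86, SE 0.08, adjusted p = 1.36e-06). MYLIP, a ubiquitin ligase that degrades lipoprotein receptors and, like ABCA1 and ABCG1, is a target of liver X receptors in mammals, was 179, 188, 182 and 185 CPM in poGC-CT against 315, 317, 306 and 306 CPM in poGC-KD. In phGC, MYLIP had 104, 111, 104 and 103 CPM in phGC-CT against 164, 150.4, 163 and 157 CPM in phGC-KD (average log2 fold change 0.67, SE 0.04, adjusted p = 1.11e-08). All 3 genes were apart in each stage and rose by similar amounts in both.

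APOA1, the acceptor itself, rose by 0.49 on the log2 scale with 2307 to 2908 CPM in poGC-CT against 3357 to 3845 CPM in poGC-KD, and 12348 to 17737 CPM in phGC-CT against 18945 to 23347 CPM in phGC-KD. LIPG, the endothelial lipase, rose by 1.002, SCD, the stearoyl desaturase, by 0.31, PLIN2, a lipid droplet coat protein, by 0.36, and PPARA by 0.62. The shared falls were FABP7, a fatty acid binding protein (-1.04), PPARG (-0.29), and CPT1A (-0.43) and CPT2 (-0.24), which bring fatty acids into mitochondria for oxidation. Cholesterol synthesis and uptake genes gave 5 shared rises (13.9%) and 1 shared fall (2.78%) among 36 tested rows, against 6.82% and 6.84% of all gene rows. SREBF1 (0.30), DHCR7 (0.26), LIPA (0.32), SOAT1 (0.23) and STARD4 were up and SCARB1 (-0.37), the lipoprotein receptor, was down.

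Interferon-stimulated genes that moved in both stages all fell. Of 45 tested rows 2 rose and 15 fell, where 13.2% and 12% of all gene rows did so. Shared were 9 falls, 20% of the rows, and no rise, and the median of the list was -0.21. Shared falls were 6.84% and shared rises 6.82% of all gene rows. IFIT5, which binds foreign RNA ends, was 1876, 1737, 1854 and 1859 CPM in poGC-CT against 1156, 1207, 1248 and 1265 CPM in poGC-KD. In phGC, IFIT5 had 7.69, 6.45, 4.45 and 3.41 CPM in phGC-CT against 3.02, 1.56, 2.33 and 2.11 CPM in phGC-KD (average log2 fold change -0.87, SE 0.16, adjusted p = 0.000808). Its level was far higher in poGC than in phGC, and KD and CT were apart in both. RSAD2, the antiviral protein viperin, was 1356, 1299, 1406 and 1437 CPM in poGC-CT against 1073, 1049.6, 978 and 948 CPM in poGC-KD. In phGC, RSAD2 had 5.41, 8.19, 6.78 and 4.54 CPM in phGC-CT against 4.45, 2.85, 2.36 and 4.01 CPM in phGC-KD (average log2 fold change -0.62, SE 0.13, adjusted p = 0.00221). IFI27L2 fell by 0.77 on the log2 scale, IRF7, the factor that amplifies the response, by 0.40, MAVS, the mitochondrial adaptor of RNA sensing, by 0.30 and TRIM25, a ubiquitin ligase of that route, by 0.39. The 9 markers of white blood cells in the files summed to 74.0 to 81.6 FPKM in poGC-CT, 57.2 to 64.5 in poGC-KD, 47.8 to 56.5 in phGC-CT and 34.3 to 45.7 in phGC-KD, lower in KD without overlap in both stages. Most of that sum was CD74. The defining markers PTPRC, CD3E, CD4 and CD8A had group means of at most 0.30 FPKM, and CD3D had 2.08 to 3.46 FPKM. By group means CD74, CD3D, CD3E, CD4 and CD8A were lower in KD in both stages, and PTPRC and LAPTM5 were higher. LCP1 was lower in poGC-KD (4.50 to 3.74 FPKM) and higher in phGC-KD (3.56 to 4.56), and MARCO, near 0, was the reverse. The part of such cells was not tested. Leaving out the first phGC-KD library brought the shared falls of the interferon list to 6, the lowest of the settings run.

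Signalling pathways of the follicle gave a few members each. For Notch, LFNG, the Fringe enzyme that modifies the receptors, was 34.3, 35.3, 37.8 and 38.0 CPM in poGC-CT against 14.6, 21.2, 16.9 and 16.9 CPM in poGC-KD. In phGC, LFNG had 47.3, 39.5, 49.8 and 47.0 CPM in phGC-CT against 16.8, 13.7, 15.6 and 19.9 CPM in phGC-KD (average log2 fold change -1.27, SE 0.10, adjusted p = 3.71e-07). NRARP, a target that feeds back on the pathway, fell by 0.86 on the log2 scale. It and LFNG were the 2 shared falls among 21 tested rows, which also held 2 shared rises. These shares, 9.52% each, were near the 6.84% and 6.82% of all gene rows, and the rises were 1 in 10 of 24 alternative settings. For Wnt, 7 of 42 rows were shared falls (16.7%) and 2 were shared rises (4.76%), against 6.84% and 6.82% of all gene rows. CTNNB1, beta-catenin, fell by 0.48, the receptors FZD2 by 0.83 and FZD8 by 0.43, the ligand WNT2 by 1.12, and WLS, which carries Wnt proteins to the surface, by 0.31.

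For BMP signals 4 of 46 rows were shared falls and 4 were shared rises, 8.70% each, near the shares over all gene rows (6.84% and 6.82%). With BMP3, the antagonist GREM1 (-1.29) and the receptor ACVR1 (-0.55) fell, while the receptor BMPR2 (0.64), the AMH receptor AMHR2 (0.29) and the BMP target genes ID1 (0.55) and ID3 (0.56) rose, as log2 fold changes. The EGF receptor EGFR rose by 0.47 on the log2 scale and its ligand HBEGF fell by 0.66. These were the EGF family members among 5 shared rows of a list of 27. That list had 2 shared rises (7.41%) and 3 shared falls (11.1%), against 6.82% and 6.84% of all gene rows.

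Immediate early genes gave 6 shared falls (28.6%) and 1 shared rise (4.76%) among 21 tested rows, against 6.84% and 6.82% of all gene rows. Their median was -0.35. The falls were EGR2 (-0.99), CYR61, BTG2, CTGF, BTG1 (-0.35) and MYC (-0.38), and the rise was FOSL2 (0.36), as log2 fold changes. Heat shock and unfolded protein genes gave 10 shared falls (23.3%) and 1 shared rise (2.33%) among 43 rows, against the same shares of all gene rows. HSPA2, a chaperone, fell by 0.99 on the log2 scale, and more so in poGC (adjusted p for the interaction = 0.00221). The other falls were small, such as XBP1 (-0.23), ATF4 (-0.23) and HSPA5 (-0.18), the targets and effectors of the sensors of misfolded protein, while ERN1, one of these sensors, rose by 0.40.

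In glucose metabolism and the response to low oxygen, shared rises and falls were equal in number. There were 8 in each direction among 46 rows, 17.4%, against 6.82% and 6.84% of all gene rows. The first enzymes HK1 (0.30) and HK2 (0.29), the transporter SLC2A3 and ENO1 (0.24) were up, and PFKM (-0.58) and SLC16A3 (-0.31), the lactate exporter, were down, as log2 fold changes. In the methionine and one-carbon list 6 of 28 rows were shared falls (21.4%) and 4 were shared rises (14.3%), against 6.84% and 6.82% of all gene rows. BHMT, DMGDH and SARDH were among the falls. The rises included CHDH (0.36), which makes betaine from choline, and MAT2B (0.39), a subunit of the S-adenosylmethionine synthase.

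Genes of the apoptosis list gave 5 shared falls and 3 shared rises among 53 rows, 9.43% and 5.66%, near the 6.84% and 6.82% of all gene rows. FAS, BIK (-0.72) and BOK (-0.67), which promote cell death, fell together with MCL1 (-0.48), which prevents it, and XIAP (0.37), an inhibitor of caspases, rose with CASP2 (0.36), a caspase itself, as log2 fold changes. Of 15 small RNA machinery rows 3 were shared rises (20%) and 1 was a shared fall (6.67%), against 6.82% and 6.84% of all gene rows. DICER1, which also cuts precursors into short duplexes, rose by 0.47 on the log2 scale, TNRC6C, a silencing partner of Argonaute, by 0.44 and ERI1, an exonuclease, by 0.14, and TSN, translin, fell by 0.32.

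The average over stages hid a stage difference for genes of cell division. Of 78 mitosis rows 56 rose and 1 fell on average, where 13.2% and 12% of all gene rows did so. Shared were 17 of these rises, 21.8% of the rows, and 1 fall, against 6.82% and 6.84% of all gene rows. An interaction at an adjusted p under 0.05 was found for 57 rows, against 9.25% of all gene rows. The median log2 fold change was 0.97 in poGC and 0.06 in phGC. ANLN, which organises the cleavage furrow, was 59.6, 52.7, 58.3 and 59.9 CPM in poGC-CT against 137, 141, 142 and 153 CPM in poGC-KD. In phGC, ANLN had 64.1, 51.3, 33.3 and 48.6 CPM in phGC-CT against 77.5, 63.6, 70.2 and 61.4 CPM in phGC-KD (average log2 fold change 0.89, SE 0.15, adjusted p = 0.000314). Its groups were apart in poGC and overlapped in phGC, and the log2 changes were 1.31 and 0.47 (adjusted p for the interaction = 0.0136).

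Other shared mitosis rises were the spindle gene CKAP2 (0.88), the kinesin KIF11 (0.85) and the centromere genes NDC80 (0.67) and CENPA (0.79), and the shared fall was SKA2 (-0.24), as log2 fold changes. Of 57 DNA replication rows 24 rose and 2 fell on average, and 31 had an interaction at an adjusted p under 0.05. Of all gene rows 13.2% rose, 12% fell and 9.25% had such an interaction. The median log2 fold change of the DNA replication rows was 0.56 in poGC and -0.02 in phGC. Shared were 3 rises (5.26%), MCM6 (0.59), RFC1 (0.49) and CLSPN (0.49), and 1 fall (1.75%), both below the 6.82% and 6.84% of all gene rows. The average of MCM6 joined 1.03 in poGC with 0.14 in phGC. Of 45 regulators of the cycle 2 were shared rises (4.44%) and 5 were shared falls (11.1%), against 6.82% and 6.84% of all gene rows. Those that moved in both stages included E2F8 (average log2 fold change 0.94, SE 0.11, adjusted p = 1.85e-05) with 15.4 to 17.0 CPM in poGC-CT against 37.1 to 38.1 CPM in poGC-KD, and 7.20 to 11.2 CPM in phGC-CT against 11.5 to 16.5 CPM in phGC-KD, MYBL1 (0.92), the inhibitor CDKN1B (-0.39), and the cyclins CCND1 (-0.33) and CCND2 (-0.21), of which the first pair rose and the others fell.

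Keratins of simple epithelia rose while the epithelial cadherin fell. KRT19 was 7.63, 8.64, 9.66 and 9.03 CPM in poGC-CT against 40.9, 39.9, 43.5 and 41.0 CPM in poGC-KD. In phGC, KRT19 had 198, 229, 241 and 223 CPM in phGC-CT against 301, 361, 325 and 359 CPM in phGC-KD (average log2 fold change 1.39, SE 0.22, adjusted p = 0.000265). KRT8 rose by 0.78 on the log2 scale and KRT7 by 0.23. KRT19 and KRT8 rose more in poGC, where they were low (adjusted p for the interaction = 1.14e-06 and 0.0391). The 10 markers of surface epithelium in the files summed to 28.9 to 36.7 FPKM in poGC-CT, 53.04 to 57.5 in poGC-KD, 332 to 374 in phGC-CT and 359 to 417 in phGC-KD. UPK1B, UPK3B, CLDN3 and CLDN4 of that list had group means of at most 0.0881 FPKM, and the part of such cells in the result was not tested.

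Lists for the basic machinery of the cell contributed few shared rows. No rise and 2 falls (3.57%) were shared among 56 rows of the mitochondrial respiratory chain. Among 68 rows of ribosomal proteins there were again no shared rise and 2 shared falls (2.94%). Both were below the 6.82% shared rises and 6.84% shared falls of all gene rows. Their medians were -0.09 and -0.12. In the average test no member of either list rose while 5 and 8 rows fell, where 13.2% of all gene rows rose and 12% fell. By stage the medians were -0.018 and -0.017 in poGC, and -0.16 and -0.23 in phGC. In the respiratory chain 36 rows were lower and 4 higher in both stages, and in the ribosomal list 42 and 1. The same count over all gene rows was not taken.

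**Figure D5:**
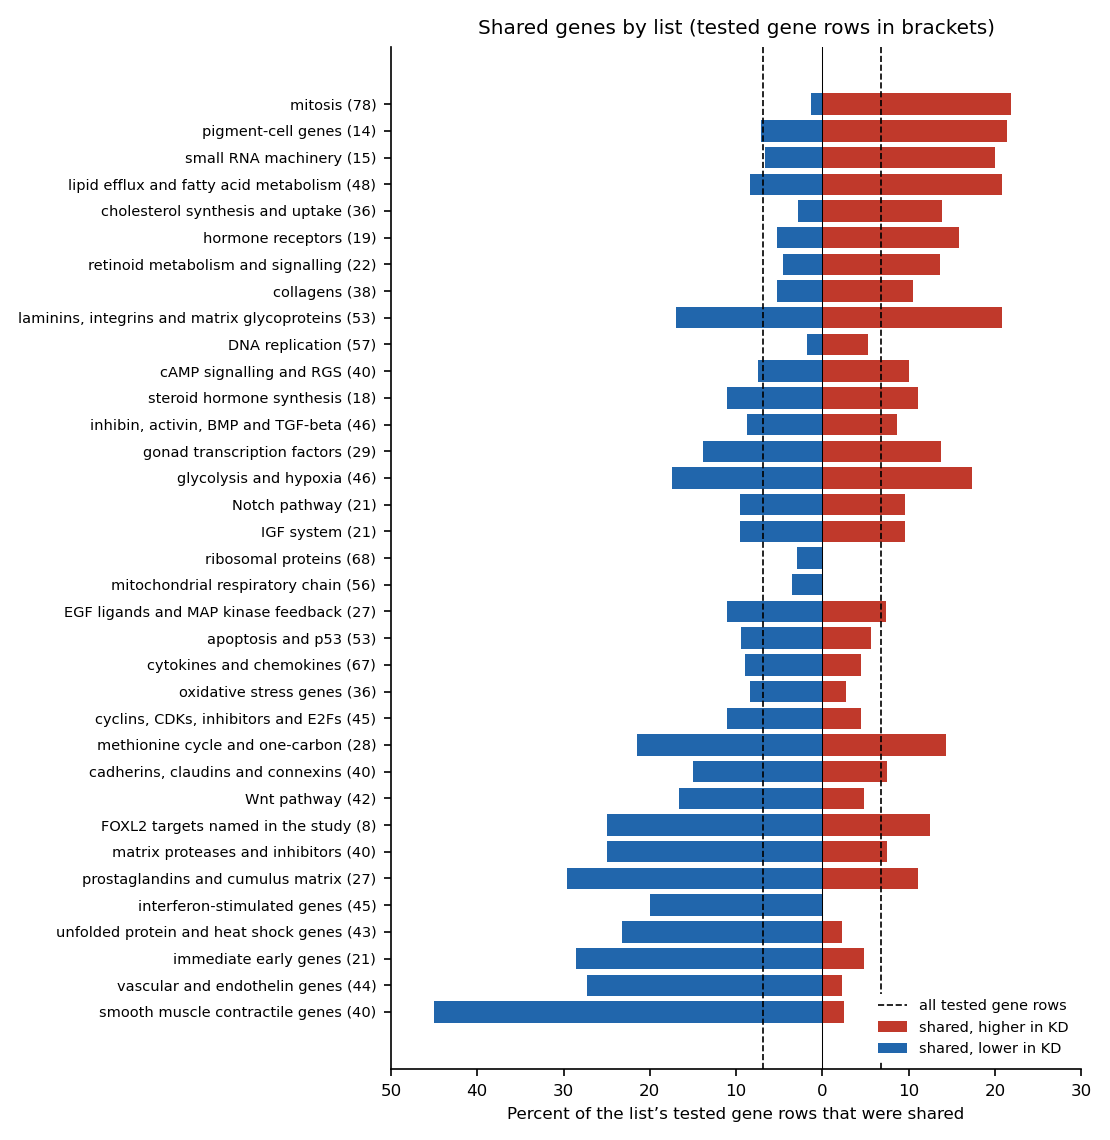
Percent of the tested gene rows of 35 lists that were shared rises (red, to the right) or shared falls (blue, to the left), with the 6.82% and 6.84% of all tested gene rows as dashed lines and the number of tested rows in brackets. The contractile list reaches 45.0% to the left, the vessel, immediate early and prostaglandin lists exceed 25%, and mitosis, pigment-cell, lipid efflux and matrix glycoprotein genes exceed 20% to the right. The lists were compiled by hand with earlier results of these data known.

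Some shared genes are neighbours in the genome. Among 11729 pairs of tested symbols that are adjacent in the gene order of the GRCg7b assembly, 350 had both members shared. Of these 231 moved in the same direction and 119 in opposite directions. Of all tested gene rows 13.7% were shared, and how many such pairs that share alone would give was not tested. The subunits of soluble guanylate cyclase, GUCY1A3 (-0.75) and GUCY1B3 (-0.60), and of an ATP-sensitive potassium channel, KCNJ11 (-0.77) and ABCC8 (-0.62), fell as pairs. ACTA2 and FAS, PLA2G4A and PTGS2, and MMP13 and MMP10 were further pairs of falls. The complement proteases C1S (0.72) and C1R (1.21) rose together, mainly in phGC, and so did GATA4 with its neighbour FAM167A (1.48). Among the opposite pairs, IFIT5 (-0.87) fell beside SLC16A12 (1.88), which rose. The strand setting of the counting is not given in the sources used here, and reads of overlapping neighbours could not be told apart.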

How the data were processed

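Poly(A) RNA of 16 cultures was sequenced in paired ends. The methods of the study name TopHat2 and an Ensembl Gallus_gallus-5.0 genome, whereas the submitters' processing notes name HISAT2 2.1.0, StringTie 1.3.4d and DESeq2 1.26.0. The counting program, its annotation and its strand setting are not given in the sources used here, and reads of overlapping genes, of near-identical copies and of the 18 shared rows whose symbol occurs more than once may be split wrongly. The authors deposited a raw count and an FPKM value (per transcript length and mapped fragments) for each of 18151 gene rows. Counts were tested with edgeR 4.0.16 (R 4.3.3) by the quasi-likelihood test for KD against CT with stage as a term, after TMM scaling and filterByExpr, with Benjamini-Hochberg adjustment over 14775 gene rows. Stage contrasts and the interaction came from a fit with 1 mean per group. FPKM served for levels of markers and an alternative with limma 3.58.1, with log2(FPKM + 1) as the scale. SE is that of the log2 fold change. FOXL2 and 3 library measures were tested by exact permutation within stage (4900 relabellings, two-sided). The fits were tested on simulated data.

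Named genes were FOXL2, list members, the 15 largest rises and 15 largest falls without overlap and with a mean of at least 1 CPM among shared genes above 1.5-fold, the 10 shared genes with the smallest p-values, and the 5 rises and 5 falls above 1.5-fold with the highest mean FPKM. The members and the lists of genes, compiled by hand, were chosen with earlier results of these data known. Neighbours outside the lists (C1S, C1R, FAM167A, KCNJ11, ABCC8, GUCY1A3 and GUCY1B3) were chosen after their values were seen, and some list members that are counted are not reported here by name. Alternatives were 2 other scalings, 2 filters, DESeq2 1.42.0, a 4-mean fit, replicate blocks and leaving out each library. Library totals of 29979116 to 56121795 counts make counting error small for all but the lowest genes, and the spread between libraries includes it.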

Additional observations from a re-analysis of the deposited data

Results flagged for a closer look

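In 35 of 836 sets of 4 libraries, taken over the 209 genes named above, the highest or lowest library stood apart from the other 3 by Dixon's criterion, its gap as a share of the range exceeding the critical value for 4 values. This is 4.19% of the sets, and chance gives about 1 in 20. A highest library of poGC-CT stood apart for BIK (0.844, replicate 1), FABP7 (0.841, replicate 2) and KIF25 (0.835, replicate 2). A lowest library of poGC-CT stood apart for CASP2 (0.878, replicate 4), EGR2 (0.884, replicate 2), HAS2 (0.864, replicate 1), HK2 (0.889, replicate 1), IFIT5 (0.84, replicate 2) and PFKM (0.894, replicate 4). A highest library of poGC-KD stood apart for BOK (0.883, replicate 3), CKAP2 (0.931, replicate 4), INSM1 (0.842, replicate 1), NR3C1 (0.861, replicate 1), POR (0.897, replicate 1) and VCL (0.851, replicate 4). A lowest library of poGC-KD stood apart for ABCC8 (0.852, replicate 1), FBLN1 (0.899, replicate 1), FSHR (0.837, replicate 3), GGT5 (0.846, replicate 2) and GREM1 (0.882, replicate 1). A highest library of phGC-CT stood apart for ADAM12 (0.837, replicate 1), EFEMP1 (0.956, replicate 1), MYLIP (0.866, replicate 2) and SARDH (0.85, replicate 4). A lowest library of phGC-CT stood apart for CYP11A1 (0.919, replicate 1), ENO1 (0.893, replicate 1) and KRT8 (0.858, replicate 1). A highest library of phGC-KD stood apart for ABCG1 (0.923, replicate 1), BOK (0.886, replicate 2), CPT1A (0.898, replicate 1), FZD2 (0.913, replicate 2), INSM1 (0.834, replicate 4) and NR0B1 (0.966, replicate 2). The same held in phGC-KD for NXPH4 (0.924, replicate 2). A lowest library of phGC-KD stood apart for FGFR3 (0.898, replicate 2). The numbers in brackets are the gap as a share of the range. For NR0B1 the apart library, phGC-KD replicate 2, had 78.0 CPM against 44.8 to 45.9 CPM in the others.

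The siRNA effect differed between the stages for 52 of the 209 named genes. The threshold was an adjusted p under 0.05 in the interaction test of edgeR over all tested gene rows. Of all gene rows 9.25% passed it, and the named genes were chosen with earlier results of these data known. The effect was larger in size in poGC for 44 and in phGC for 8, 2 of the genes having opposite signs. Among all shared rows with an interaction, 182 changed more in poGC and 50 more in phGC. The values that follow are the log2 fold change in poGC less that in phGC. Genes that fell more in poGC had -1.59 for ANGPTL6, -1.07 for ANGPT1L, -1.07 for EDNRB, -1.001 for PLAU, -0.97 for CALD1, -0.92 for CDH5 and -0.92 for PCK1. Further falls of this kind were -0.89 for PDLIM3, -0.85 for PLVAP, -0.82 for BHMT, -0.81 for HSPA2, -0.77 for EFEMP1, -0.75 for MGP and -0.74 for PTGS2. Smaller differences in falls were -0.61 for EDN1, -0.60 for NRARP, -0.59 for MMP9, -0.55 for ACTN1, -0.52 for FLT1, -0.49 for LAMB1 and -0.32 for CDKN1B. The difference was -0.27 for APLP2. Genes that rose more in poGC had 0.24 for MAT2B, 0.29 for PLIN2, 0.50 for EGFL7, 0.62 for RP5-877J2.1, 0.67 for KRT8, 0.69 for ASTN2 and 0.82 for MYBL1. Larger differences in rises were 0.85 for ANLN, 0.85 for LIPG, 0.88 for MCM6, 0.91 for HMMR, 0.91 for CKAP2, 0.94 for SLC26A3 and 1.09 for KIF11. Beyond these the difference was 1.28 for FAM167A, 1.64 for KRT19, 1.75 for CMBL, 2.14 for CHRM2, 2.27 for TYRP1 and 2.28 for IGSF11. Genes that rose more in phGC had -2.26 for TMOD1, -1.55 for C1R, -1.02 for C1S, -0.90 for RLN1, -0.76 for SERPINF1 and -0.46 for NR5A1. Genes that fell more in phGC had 0.49 for TRIM25 and 0.53 for FABP7. The genes with opposite signs had -1.11 for AMH and -0.93 for STAR. The adjusted p-values ran from 1.14e-06 to 0.0456.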

How the results depend on the processing

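The counts of called, shared and interaction rows over all genes kept within 1.5 times their values under the alternatives run. So did 19 of 20 list counts of 5 or more shared rows in 1 direction, most of these lists having been added after seeing the data, the exception being the 8 shared rises in glucose metabolism, which were 5 with upper-quartile scaling. Of 50 smaller list counts 30 moved by more, among them the 1 shared rise of the contractile list. Leaving out 1 library at a time gave 1642 to 2154 rises and 1539 to 1824 falls in the average test, 869 to 1129 shared rises, 902 to 1012 shared falls, 181 to 274 interactions among shared genes and a FOXL2 log2 fold change of -0.62 to -0.52. Of the 2018 shared gene rows, 1732 or more were also shared in each of these fits. DESeq2 called 2250 rises and 2104 falls, and limma on FPKM, with 14120 rows of at least 0.1 mean FPKM, called 2231 and 1416. The named genes were chosen with earlier results of these data known, and the count that follows does not cover their shared calls. In the average test, 4992 of 5002 log2 fold changes of named genes under the alternatives kept their direction and side of the threshold. Those of STAR, near 0, ran from -0.116 to 0.0341 when 1 library was left out, above 0 in 9 of 16 such fits, without passing the test, and AMH passed it with -0.36 in the 4-mean fit. The cause was not tested. TMOD1 lost its shared call under both blocks and without any one of several poGC libraries. It was not tested when 10 counts in every library were required. Whether same-numbered libraries are paired is not given in the sources used here. The correlation of deviations in same-numbered pairs was -0.08 to 0.10, and 1 of 8 libraries correlated best with its own number. These values cannot decide it, as deviations over all tested rows also hold library noise. With the replicate block within cell type, 1596 rises, 1401 falls, 1040 shared rises and 945 shared falls were called and FOXL2 was at -0.56. With the replicate block across cell types there were 1860, 1660, 1023 and 998. Depth was not limiting for most genes, but members near 1 CPM, such as NR5A2 in phGC with 13 to 75 counts per library, are less precise.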
